A study of Brassica rapa with 5 samples.

Results

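The genes described here are those whose transcript level in leaves of Brassica rapa, a leafy Brassicaceae crop, was at least 2-fold higher both under Fe deficiency and under Zn excess than under normal supply. They were chosen by that pattern in the deposited values, on the scale log2(TPM + 1), among genes with a mean of at least 5 TPM over the 5 conditions. TPM here is tags per 1000000 clean tags. The rule found 44 genes among 10807 at that level, which is 0.407%, out of 29183 genes listed in any table. Of the 10807 genes, 3.72% were at least 2-fold higher under Fe deficiency and 0.888% under Zn excess. Because these 2 treatments chose the genes, their values there are a description and support no test. The levels under Zn deficiency and Cd exposure entered the rule only through the minimum mean over the 5 conditions. Their changes from the control, and the spread between libraries, were not used.

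Plants of accession R-o-18 grew in hydroponics for 14 days with 3 µM Fe, 2 µM Zn and without Cd. Controls stayed in that solution for 7 more days, while the treated plants received 0.05 µM Fe (Fe deficiency), 0.005 µM Zn (Zn deficiency), 50 µM Zn (Zn excess) or 1 µM Cd (Cd exposure). Their leaves are called low-Fe, low-Zn, high-Zn and Cd-treated leaves below. The first pair of expanded leaves was sampled from 3 replicates of 3 plants per condition, and each condition was deposited as 1 table of means over 3 libraries. Every level below is therefore 1 mean value per condition.

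Fe is needed for chlorophyll synthesis and for the electron carriers of photosynthesis, and Fe-deficient leaves turn pale. In Arabidopsis thaliana, shortage of Fe raises transcripts of a small set of transcription factors, signalling peptides, metal transporters and enzymes that make metal-binding molecules. Zn is an essential cofactor that becomes toxic in excess, and Zn and Fe compete for some of the same transporters and ligands. None of the 29183 identifiers matched a name in the reference gene table, so the members are given by identifier, without roles, and leaf marker genes were not analysed here.

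Libraries held between 5575674 and 5997199 clean tags, as recovered from the 2 deposited columns, so that 1 tag over the 3 libraries of a condition was worth 0.0568 to 0.058 TPM. Under Fe deficiency the median of all genes lay 0.17 above the control on the log2 scale, against 0.07 under Zn excess, -0.01 under Zn deficiency and -0.07 under Cd exposure. With size factors that remove a shift of 0.181 for Fe deficiency and 0.075 for Zn excess, 37 of the 44 genes still met the rule.

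The members spanned a wide range of response. The log2 change had a median of 2.44 in low-Fe leaves (1.03 to 7.40) and of 1.86 in high-Zn leaves (1.00 to 6.85), and 18 genes were at least 4-fold higher in both on this scale. Together the 44 genes held 0.0528% of clean tags in the control, 0.0759% under Zn deficiency and 0.0506% under Cd exposure, against 0.348% under Fe deficiency and 0.249% under Zn excess. The 18 genes at least 4-fold higher in both gave 54.7 TPM in sum in the control, 59.9 under Zn deficiency, 57.7 under Cd exposure, 1493.7 under Fe deficiency and 1258.7 under Zn excess. The summed level of these 18 genes was thus nearly the same in the control, under Zn deficiency and under Cd exposure. Single genes differed within that sum. Under Zn deficiency 12 of the 18 lay below the control (50.9% of all genes did), such as Bra007240 with 3.17 TPM in controls and 0.579 in low-Zn leaves. Bra022310 went the other way, with 12.4 and 20.0 TPM. In whole-leaf RNA, a change in the share of cells of one type and a change in RNA per cell cannot be told apart.

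**Figure D1:**
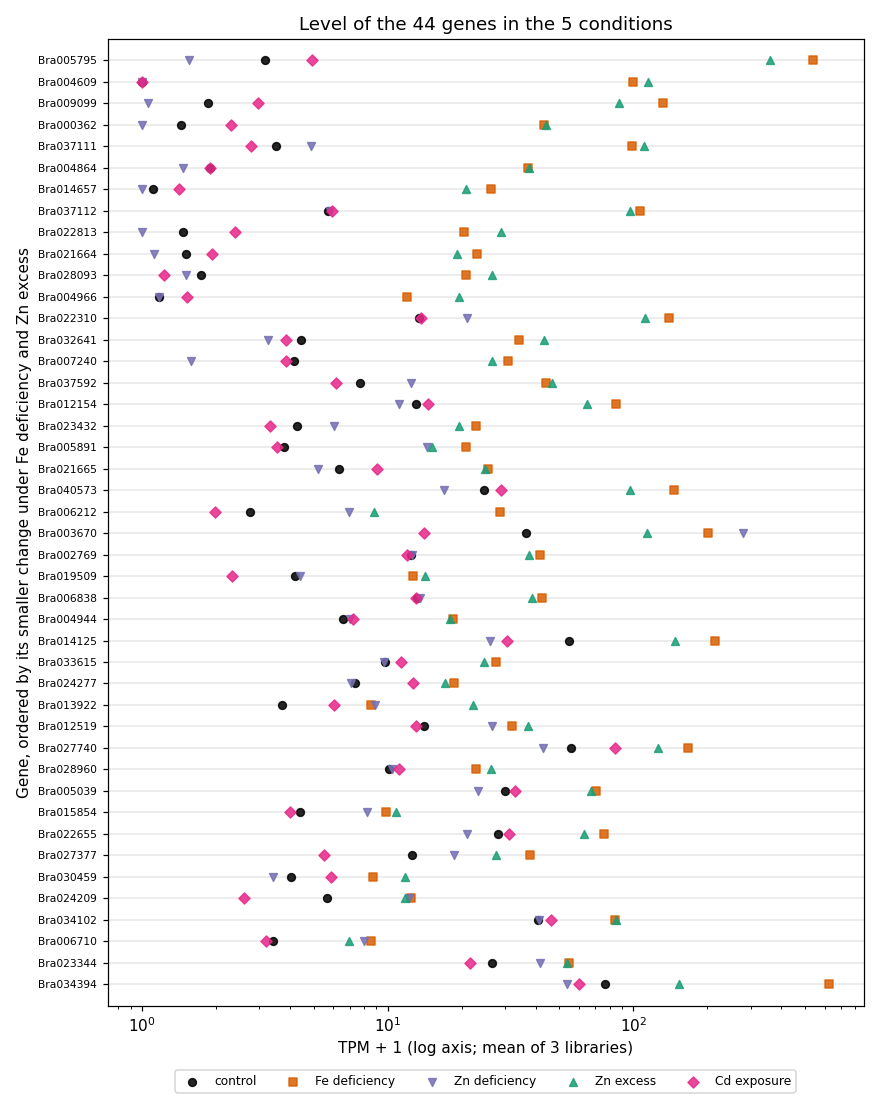
Level of each of the 44 genes as TPM + 1 on a log axis (x) in the 5 conditions, each point the mean of 3 libraries, with genes (y) ordered by the smaller of their changes under Fe deficiency and Zn excess. The 18 uppermost genes have both values at least 4-fold above the control, and their 3 other values lie well to the left of these.

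Several of the strongest members had almost no tags without these treatments. Bra004609 had 0 tags in the control, under Zn deficiency and under Cd exposure, which allows up to 0.172, 0.174 and 0.174 TPM (3 tags over the libraries of each condition). It stood at 98.8 TPM in low-Fe and 114 TPM in high-Zn leaves, which is 576 and 665 times the value of 3 tags in the control (0.172 TPM). Its tag sums in these 2 conditions were 1722 and 1988.

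Bra005795 stood at 2.17 TPM in controls, 536 in low-Fe, 0.556 in low-Zn, 358 in high-Zn and 3.93 in Cd-treated leaves. The ratio to the control was 247 under Fe deficiency (95% counting interval 183 to 358) and 165 under Zn excess (123 to 241). Some of its tags were fractions of a tag, the form that tags shared among similar genes would take, so its level may include a similar gene. Bra009099, which also had a fractional tag sum in 1 condition, stood at 0.864 TPM in controls, 131 in low-Fe, 0.0572 in low-Zn, 86.0 in high-Zn and 1.97 in Cd-treated leaves. In both genes the low levels were ordered alike, with low-Zn leaves lowest, then controls, then Cd-treated leaves. The same order held for 16 of the 44 members (36.4%, against 26% of all genes). For neither gene did the difference of low-Zn or Cd-treated leaves from the control pass the limma test given below.

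Bra014657 had 2 tags in the control (0.113 TPM), 0 under Zn deficiency and 7 under Cd exposure (0.409 TPM), against 25.3 TPM in low-Fe and 19.8 TPM in high-Zn leaves. From so few control tags its ratio was uncertain, 224 under Fe deficiency (60.0 to 1810) and 175 under Zn excess (47.6 to 1440). Bra004966 had 3 tags in the control, 3 under Zn deficiency and 9 under Cd exposure, against 11.0 TPM in low-Fe and 18.5 TPM in high-Zn leaves, a ratio of 61.8 (21.5 to 313) and 104 (36.6 to 526). Bra000362 stood at 0.438 TPM in controls, 42.1 in low-Fe, 0 in low-Zn, 43.3 in high-Zn and 1.30 in Cd-treated leaves. Bra022813 followed the same order, with 0.464, 19.5, 0, 27.8 and 1.39 TPM in these conditions.

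Among all 10807 genes, 6 (0.0555%) lay below 1 TPM in the control, under Zn deficiency and under Cd exposure alike, and all 6 were members. Part of this follows from the minimum mean, since such a gene passes only through a high level under Fe deficiency, Zn excess or both. In the same way, 20 of the 44 members had a mean below 5 TPM over the 3 other conditions. They needed the treatments that chose them to pass the minimum.

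Other strong members had tags in the control, although Bra021664 had only 9. Bra037111 stood at 2.52 TPM in controls, 97.9 in low-Fe, 3.88 in low-Zn, 109 in high-Zn and 1.79 in Cd-treated leaves. Bra037112, the next identifier, stood at 4.71, 105, 4.80, 95.5 and 4.92 TPM in the same order. Both were high in low-Fe and high-Zn leaves and low in the other 3. The same held for a second pair with consecutive identifiers. Bra021664 stood at 0.512 TPM in controls, 22.2 in low-Fe, 0.116 in low-Zn, 18.1 in high-Zn and 0.925 in Cd-treated leaves, and Bra021665 at 5.35, 24.5, 4.21, 24.0 and 8.09 TPM. These were the only 2 pairs of members with consecutive numbers. Of 20 other genes with a number next to a member's and a mean of at least 5 TPM, 0 were 2-fold higher under Fe deficiency and 0 under Zn excess by size alone, where 3.72% and 0.888% of all genes were, a share too small for 20 genes to be read against. Of 44 such genes below 5 TPM, 4 were at least 2-fold higher in both treatments, Bra000363, Bra014658, Bra022311 and Bra004945, as were 0.19% of the 18376 genes at that level. They were singled out after their values were seen. So was Bra019510 among the 20, which was lower in both treatments, at 29.7 TPM in controls, 5.89 in low-Fe and 6.75 in high-Zn leaves. Of all genes tested, 1.29% were at least 2-fold lower under Fe deficiency and 1.11% under Zn excess. Bra000363 stood at 0 TPM in controls, 5.31 in low-Fe, 0 in low-Zn, 8.78 in high-Zn and 0.463 in Cd-treated leaves, and Bra022311 at 0.0841, 5.36, 0.318, 5.19 and 0.204 TPM. Numbers were taken from the identifiers, and whether these genes are neighbours in the genome was not analysed here.

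The other genes at least 4-fold higher in both also had tags in the control. Bra004864 stood at 0.896 TPM in controls, 36.2 in low-Fe and 36.7 in high-Zn leaves. Bra028093 stood at 0.740, 19.8 and 25.6 TPM in these conditions. Bra032641 stood at 3.46, 33.3 and 42.3 TPM. Bra022310 stood at 12.4 TPM in controls, 138 in low-Fe and 110 in high-Zn leaves, a ratio of 11.1 (9.61 to 12.8) and 8.89 (7.71 to 10.3). Bra012154 stood at 12.1, 83.7 and 63.9 TPM. Bra007240, Bra037592 and Bra023432 had ratios of 9.38, 6.36 and 6.66 under Fe deficiency and of 8.05, 6.79 and 5.64 under Zn excess.

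The levels reached under the 2 treatments were about as close for the members as for genes in general. The ratio of Fe deficiency to Zn excess had a median of 1.09, against 1.07 over all genes tested, and lay within 1.5-fold for 37 of the 44 genes (84.1%, against 81.9% of all genes). The value under Fe deficiency was the higher one in 28 genes (63.6%, against 60.6% of all genes). These ratios come from the values that chose the genes and were not tested.

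The widest gap was that of Bra034394, which had the highest control TPM of all members, on a scale not corrected for gene length. It stood at 76.0 TPM in controls, 625 in low-Fe, 52.9 in low-Zn, 153 in high-Zn and 59.0 in Cd-treated leaves, so that Fe deficiency exceeded Zn excess 4.07-fold. Under Zn excess it passed the rule narrowly, with a log2 change of 1.00. Bra006212 stood at 27.6 TPM in low-Fe and 7.76 TPM in high-Zn leaves, a ratio of 3.56. Bra013922 ran the other way, with 2.70 TPM in controls, 7.57 in low-Fe, 7.86 in low-Zn, 21.2 in high-Zn and 5.04 in Cd-treated leaves. Zn excess exceeded Fe deficiency 2.80-fold in this gene.

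Just inside the threshold, the smaller of the 2 log2 changes was 1.004 for Bra034394 and 1.027 for Bra023344, which stood at 25.5 TPM in controls, 53.5 in low-Fe and 52.9 in high-Zn leaves. Just outside it lay Bra007103 at 0.986 and Bra031769 at 0.984. Bra007103 stood at 10.5 TPM in controls, 26.6 in low-Fe and 21.7 in high-Zn leaves.

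Some members may share tags. Tag sums were fractional in at least 1 condition for 16 of the 44 genes (36.4%, against 37.4% of all genes tested). Bra002769 and Bra006838, both among the 16, had nearly the same level in every condition. Bra002769 stood at 11.5 TPM in controls, 40.6 in low-Fe, 11.6 in low-Zn, 36.7 in high-Zn and 11.0 in Cd-treated leaves, and Bra006838 at 12.2, 41.6, 12.5, 37.8 and 12.0 TPM. Both are counted as members throughout, although their values may rest in part on the same tags.

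The changes under Zn deficiency and Cd exposure played no part in the choice, although both were compared with the control, which did. The levels there counted only towards the minimum mean of 5 TPM over the 5 conditions. Bra006710 lay near that minimum, at 2.42 TPM in controls, 7.59 in low-Fe, 7.03 in low-Zn, 5.98 in high-Zn and 2.21 in Cd-treated leaves. Its level in low-Zn leaves thus helped it to pass, and it is counted as higher there. The median log2 change of the 44 genes was 0.00 under Zn deficiency and 0.02 under Cd exposure, against -0.01 and -0.07 over all genes tested. Under Zn deficiency 6 members were at least 2-fold higher (13.6%, against 2.66% of all genes) and 3 at least 2-fold lower (6.82%, against 0.601%). Under Cd exposure 0 were at least 2-fold higher (0.231% of all genes were) and 3 at least 2-fold lower (6.82%, against 2.92%). With a pseudocount of 0.1 TPM, which gives low values more weight, 8 were lower in low-Zn leaves (1.04% of all genes were) and 5 higher in Cd-treated leaves (0.453%). These shares cannot be read against each other directly, because 20 members had a mean below 5 TPM over the 3 other conditions. They needed their levels under Fe deficiency and Zn excess to pass the minimum. Of the 24 members with a mean of at least 5 TPM over the 3 other conditions, 4 were at least 2-fold higher under Zn deficiency and 1, Bra014125, was lower, as were 2.62% and 0.603% of the 10446 genes at that level. Under Cd exposure 0 of the 24 were at least 2-fold higher and 3 lower, as were 0.239% and 2.87% of these genes. That minimum takes in Zn deficiency and Cd exposure themselves, so it favours genes high there and drops genes low there. Bra005891, 1 of the 4, stood at 2.79 TPM in controls, 13.5 in low-Zn and 2.55 in Cd-treated leaves. Counts among the 24, here and below, are therefore a description.

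The spread behind these changes was taken from the library contrast. Tag numbers and TPM average the 3 libraries with unlike weights, and their discrepancy gives 1 estimate per gene and condition of how far the libraries disagreed. For each gene these estimates were averaged over all 5 conditions, so the 2 treatments that chose the genes contributed to the spread. They were then moderated with limma over all genes, and p-values were adjusted over the 10807 genes by Benjamini-Hochberg. Deviations of the library with the middle total are largely missed under Zn deficiency, Zn excess and Cd exposure, so standard errors (SE) may be too small. Under Zn deficiency the members' median SE was 0.37, against 0.30 over all genes. No member passed an adjusted p of 0.05 in limma there (7 higher and 3 lower at an unadjusted p under 0.05, as were 6.5% and 3.69% of all genes), and 3 of all genes did, 0.0185% higher and 0.00925% lower. With the spread taken from the control and Zn deficiency alone, 2 members rose in limma, Bra003670 at an adjusted p of 6.61e-12 and Bra005891 at 0.000812, and Bra007240 fell at 0.0121. The same fit called 1.07% of all genes higher and 0.222% lower. In that fit limma gave all genes a shared spread that varied with expression level alone, so a gene's own library disagreement did not enter. As a percentage of the mean, the library contrast in the control was -93.9% for Bra003670, -122% for Bra005891 and -69.0% for Bra007240. Under Zn deficiency it was 12.3%, -127% and 16.7%. Bra007240 also needed Fe deficiency and Zn excess to pass the minimum mean. Under Cd exposure, at a median SE of 0.27 for members and 0.19 over all genes, 2 members rose and 3 fell. These are 4.55% and 6.82% of members, against 2.69% and 6.94% of all genes, shares taken at unlike SE. All 5 were among the 24 members at 5 TPM or more in the 3 other conditions, where 2.79% of genes rose and 7.02% fell.

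The 6 members that were high under Zn deficiency as well all belonged to the 26 genes with a smaller change under 4-fold on the log2(TPM + 1) scale. That depends on the pseudocount, since by the ratio of TPM itself Bra005891 was 7.09-fold and 5.05-fold higher under Fe deficiency and Zn excess, and Bra006212 15.7-fold and 4.43-fold. Bra003670 stood at 35.6 TPM in controls, 200 in low-Fe, 279 in low-Zn, 113 in high-Zn and 13.1 in Cd-treated leaves. It was the only member with its highest level outside the 2 treatments that chose it. Its log2 change in low-Zn leaves was 2.94 (SE 0.63, adjusted p 0.254 in limma), and it fell under Cd exposure by 1.38 (SE 0.37, adjusted p 0.0387). Bra005891 stood at 2.79 TPM in controls, 19.8 in low-Fe, 13.5 in low-Zn, 14.1 in high-Zn and 2.55 in Cd-treated leaves, and its Zn deficiency change of 1.93 (SE 0.67) had an adjusted p of 0.390 in limma. Bra006212, Bra013922, Bra006710 and Bra024209 had log2 changes of 1.33, 1.26, 1.23 and 1.11 there, and none of these passed either. For Bra005891 and Bra013922 the libraries disagreed widely in low-Zn leaves, with a library contrast (defined with the libraries below) of -127% and -132% of the mean.

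The 3 genes at least 2-fold lower under Zn deficiency included 2 of the 18 strongest. Bra007240 had 55 tags in the control and 10 under Zn deficiency, or 3.17 and 0.579 TPM, a log2 change of -1.40 (SE 0.31, adjusted p 0.254 in limma). Bra005795 had a log2 change of -1.03 (SE 0.49, adjusted p 0.501 in limma). Bra014125 stood at 53.8 TPM in controls, 214 in low-Fe, 25.2 in low-Zn, 147 in high-Zn and 29.5 in Cd-treated leaves. It was lower than the control in both treatments that did not choose it. The value was a log2 difference of -1.06 (SE 0.31, adjusted p 0.350 in limma) in low-Zn leaves, and the gene fell under Cd exposure by 0.85 (SE 0.18, adjusted p 0.0159).

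The third member that fell under Cd exposure was Bra027377, at 11.6 TPM in controls, 37.0 in low-Fe, 17.7 in low-Zn, 26.7 in high-Zn and 4.52 in Cd-treated leaves, a difference of -1.19 on the log2 scale (SE 0.31, adjusted p 0.0338 in limma). Bra024209 was lower by a similar amount, -1.13 (SE 0.48), but its adjusted p was 0.150 in limma. The 2 members that rose were Bra027740 and Bra024277. Bra027740 stood at 54.9 TPM in controls, 166 in low-Fe, 41.8 in low-Zn, 125 in high-Zn and 83.1 in Cd-treated leaves, a rise of 0.59 (SE 0.15, adjusted p 0.0316 in limma). Bra024277 stood at 6.34 TPM in controls and 11.7 TPM in Cd-treated leaves, a rise of 0.80 (SE 0.22, adjusted p 0.0438 in limma).

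**Figure D2:**
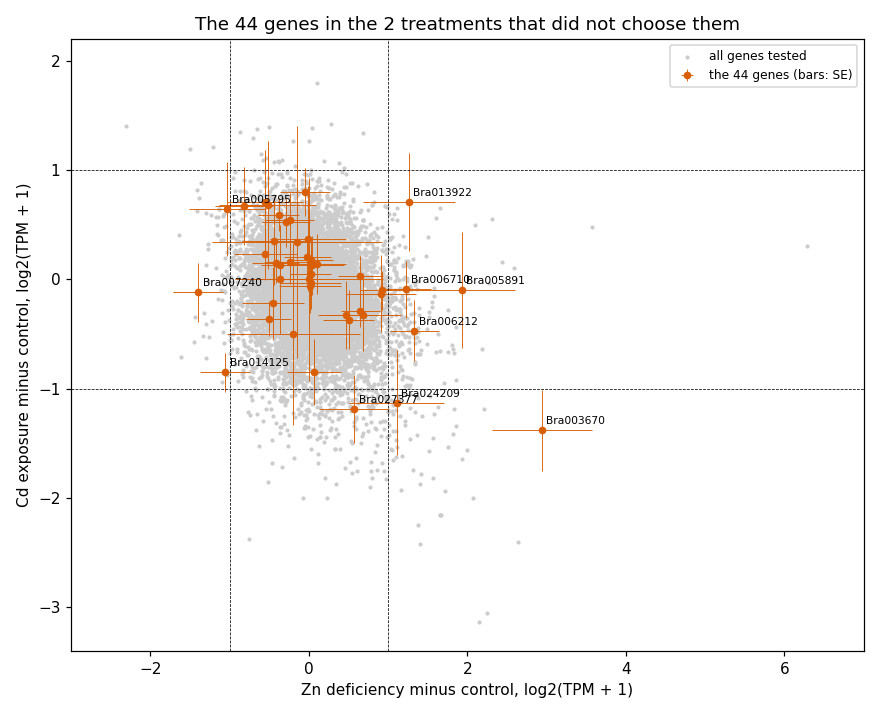
Change from the control under Zn deficiency (x) and under Cd exposure (y), both as differences of log2(TPM + 1), for the 44 genes (orange, bars are SE) over all genes tested (grey), with dashed lines at 2-fold. Most of the 44 genes lie inside the lines, 6 lie to the right of them, 3 to the left and 3 below.

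Cd exposure was also set against Zn deficiency directly, which leaves out the control that took part in the choice. This comparison was added after the data were seen. In limma 5 members were higher under Cd exposure at an adjusted p under 0.05 (11.4%, against 2.76% of all genes) and 7 were lower (15.9%, against 6.7%). Of the 24 members at 5 TPM or more in the 3 other conditions, 1 was higher and 5 were lower, as were 2.8% and 6.66% of the genes at that level. The 5 higher genes over all members were Bra005795, Bra009099, Bra022813, Bra007240 and Bra027740, of which the first 4 belong to the 18 strongest and passed the minimum through Fe deficiency and Zn excess alone, so the share of 11.4% is not a result about the members. Bra009099 had 1 tag under Zn deficiency and 34 under Cd exposure, a log2 difference of 1.49 (SE 0.26). For Bra005795 the difference was 1.66 (SE 0.42), and Bra022813 had 0 tags against 24 (1.26, SE 0.30). These differences are a description, and the spread behind them was averaged over all 5 conditions, including Fe deficiency and Zn excess. Where a gene had 0 tags, its spread in that condition came from the trend over all genes.

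The 7 genes lower under Cd exposure than under Zn deficiency were Bra003670, Bra006212, Bra006710, Bra012519, Bra023344, Bra024209 and Bra027377, and none of them was among the 18 strongest. Bra003670 differed most, by -4.32 (SE 0.65, adjusted p 0.00383 in limma). Bra006212 differed by -1.81 (SE 0.28), from 5.93 TPM under Zn deficiency to 0.982 TPM under Cd exposure. It too needed Fe deficiency and Zn excess to pass the minimum, so its difference is a description. By order alone, 12 of the 18 strongest genes and 13 of the other 26 had less TPM under Zn deficiency than under Cd exposure, against 45.3% of all genes. Whether the strong and the weaker members differ in this was not tested.

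Within each of the 2 treatments that chose the genes, the members' levels differed between libraries, mostly in 1 direction. The library contrast is positive where libraries with more tags had more of a gene and negative where they had less, and it is given as a percentage of the gene's mean. Under Fe deficiency it was negative for 36 of the 44 genes, 81.8% against 53.5% of all genes tested, with a median of -26.3% against -1.96%. Under Zn excess it was positive for 36 of the 44, against 57.8% of all genes, with a median of 27.3% against 6.33%. In the control, under Zn deficiency and under Cd exposure the members' medians were -7.09%, 5.77% and 0.467%, against 0.592%, -3.77% and 6.54% over all genes. The genes come from the same libraries and so are not separate observations of this, and it was not tested.

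**Figure D3:**
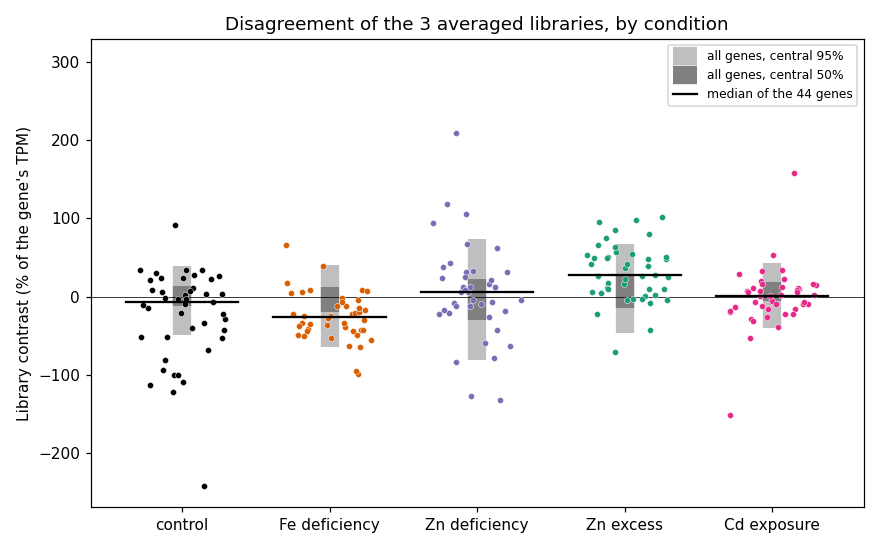
Library contrast as a percentage of the gene's TPM (y) by condition (x), with 1 point per member that had tags there, a black line at the members' median, and grey bars for the central 50% and 95% of all genes tested. The members lie mostly below 0 under Fe deficiency (median -26.3%) and mostly above 0 under Zn excess (median 27.3%).

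For Fe deficiency the columns limit the level in 1 library closely, because the other 2 libraries had nearly equal totals. For 33 of the 44 genes the library with the lowest total (5640659 tags) lay above the mean of the other 2 at both ends of its possible range, for 3 below, and for 8 the range did not decide. Over all genes tested these shares were 35.4%, 26.8% and 37.9%. The median ratio lay between 1.20 and 1.52 for all members, against 0.882 and 1.17 over all genes, and between 1.35 and 1.69 for the 18 strongest. Bra014657 had 44.5 to 47.3 TPM in that library and a mean of 14.3 to 15.8 TPM in the other 2. Bra004609 had 144 to 158 TPM there and 69.3 to 76.1 TPM in the others, and Bra005795 had 676 to 760 against 424 to 467 TPM. These genes were high in the mean of the other libraries too, against control levels of 0.113, 0 and 2.17 TPM.

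The 3 genes with the reverse order under Fe deficiency were Bra005891, Bra013922 and Bra027740. Bra005891 had 6.52 to 11.3 TPM in the library with the lowest total and 24.0 to 26.4 TPM in the mean of the others. Bra005891 and Bra013922 also had the reverse sign under Zn excess, with contrasts of -42.9% and -70.4%. Without the Fe-deficient library with the lowest total, 40 of the 44 genes still met the rule, and Bra024209, Bra028960, Bra030459 and Bra034102, all under 4-fold in the smaller change, did not. Under Zn excess the 3 totals differed by only 0.836%, and the columns leave the library with the middle total nearly free, so that between 14 and 44 genes would meet the rule without it.

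**Figure D4:**
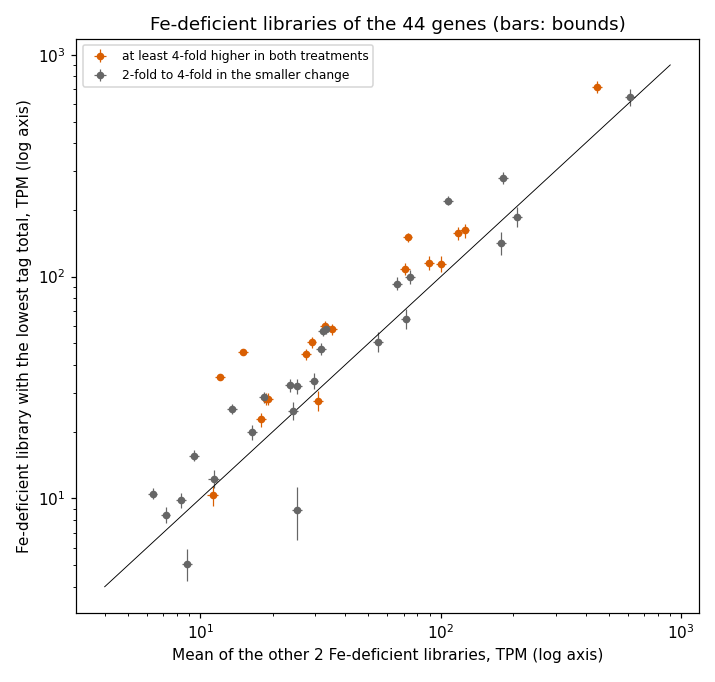
TPM of the 44 genes in the Fe-deficient library with the lowest tag total (y) against the mean of the other 2 Fe-deficient libraries (x), both on log axes, with bars for the bounds that the 2 deposited columns allow and a line of equality. The genes at least 4-fold higher in both treatments (orange) lie mostly above the line, and 16 of these 18 do so at both bounds.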

How the data were processed

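Tag counts and TPM were deposited by the authors as 1 table per condition. Per the file headers, the columns are gene, clean tags and TPM. The tag column holds estimated counts as deposited, and 21.5% to 23.0% of them were not multiples of 1 tag divided by 3 libraries (within 0.0001 tag, wider in proportion above 10 tags). The deposited TPM, tags per 1000000 clean tags, has no correction for gene length and summed to 540253 (Cd exposure) to 585704 (Fe deficiency) per table. Means over 3 libraries are inferred from the values and the design text. The mapping tool and the build were not given in the sources used here, and member sequences were not used.

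Genes absent from a table were set to 0. Changes are differences of log2(TPM + 1) from the control, which understates changes of low genes. The members and lists were chosen with earlier results of these data known. Members are named if at least 4-fold higher in both treatments, at least 2-fold changed under Zn deficiency or Cd exposure, among the 2 highest in the control, or next to the threshold, and others where a count or a spread singled them out after the values were seen. The pathway and leaf marker lists were not used, since 0 identifiers matched a name.

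Library totals were recovered from genes with 1 tag in 1 library, whose TPM took 3 common values per condition (85.3% to 95.2% of such genes), and refined on genes with more tags. Of genes with whole sums of up to 12 tags, 93.9% to 95.4% could then be solved for whole tags in 3 libraries, against at most 0.403% with totals moved. The library contrast is the sum of each library's TPM weighted by how far its total lies from the average, scaled to an SD. Squared contrasts were divided by a loess trend on expression, averaged over the 5 conditions, and moderated with limma 3.58.1 in R 4.3.3. On simulated libraries with Cd exposure changed in 95 genes 2-fold and 96 genes 4-fold among 10449, the test found 72.6% and 100% of them and called 8 unchanged genes. In simulated Zn deficiency, with no changed gene, 0 were called and 5.37% had an unadjusted p under 0.05. Within a condition every simulated gene had the same dispersion, so differences in spread between genes were left out. Whether 5.37% holds for the members was not measured. All changed genes had a simulated control of at least 5 TPM. How many true changes the test would find under Zn deficiency, or in members with lower controls, was therefore not measured. Counting intervals are exact at 95%, use tag sums rounded to whole tags, and cover counting error only. The labels give replicates of pooled plants, so p-values measure the spread between pools.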

Additional observations from a re-analysis of the deposited data

How the results depend on the processing

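The number of members was 52 with a pseudocount of 0.1 TPM, 31 with 5 TPM and 37 with size factors. Without a filter on low values it was 79, the 44 and 35 more. With a minimum mean of 20 TPM it was 20 and among genes with whole tag sums 28, both from fewer genes. With 1 library of the control, Fe deficiency or Zn excess left out, it lay between 14 and 44 over the cases the columns allow, a range added after seeing the data. Members 2-fold higher under Zn deficiency numbered 2 with a pseudocount of 5 TPM, 1 with a minimum mean of 20 TPM (Bra003670) and 2 with whole tag sums, against 6. Those lower there numbered 8 with a pseudocount of 0.1 TPM and 0 with 5 TPM, against 3. Under Cd exposure, 5 were higher with a pseudocount of 0.1 TPM, against 0, and 5 were lower with 0.1 TPM and 1 each with a pseudocount of 5 TPM, a minimum mean of 20 TPM and whole tag sums, against 3. Where the spread came from the 2 conditions compared alone, 2 members rose and 1 fell under Zn deficiency (limma, adjusted p under 0.05), against 0 and 0. With the minimum of 5 TPM set on the control, Zn deficiency and Cd exposure alone, added after seeing the data, 1 member was 2-fold lower under Zn deficiency, against 3, and 1 rose from Zn deficiency to Cd exposure, against 5. The cause was not tested for moves not due to fewer genes. The other counts stayed within 1.5 times, and of 348 values of 29 named members under other pseudocounts and size factors 250 moved by no more than 1 SE and 0 called values changed sign. Depth limits members with few control tags, such as Bra014657 with 2. No paired analysis was possible because the libraries of a condition were averaged before deposit.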
